A study of Mus musculus with 10 samples.

Results

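The genes described here code for the proteins of the cytosolic ribosome. They were taken by symbol from the RNA-seq table, as every row named Rpl or Rps followed by a number (with an a, x or y where the name has one), a P protein number or a, without pseudogenes and without the ribosomal S6 kinases. This gave 76 of the 53974 genes in the table, 46 of the large subunit (Rpl, Rplp) and 30 of the small subunit (Rps, Rpsa). The name pattern leaves out some genes, such as *Rps3a1*, *Fau* and *Rack1*, which also contribute to the ribosome and are given apart. In the ATAC-seq comparison, the regions within 1000 bp of an end of these genes were taken, 62 of 16600.

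Retinal cells were sorted by FACS with an antibody to Thy1.2, a surface protein used to enrich RGCs, 3 days after ONC. The mice were C57BL/6 of 8 to 10 weeks with both *Arid1a* alleles floxed, and AAV2 had been injected into the vitreous 2 weeks before ONC. WT mice received AAV2-GFP (genotype label Arid1a fl/fl) and cKO mice received AAV2-Cre (genotype label Arid1a del/del), so both groups carry the floxed alleles, a virus and a crushed nerve, and no uninjured group enters. RNA-seq covers 3 libraries per group and ATAC-seq covers 2 per group. Deletion is limited to cells that the virus reached, and each sorted sample pooled several retinas. Nothing states whether replicates came from separate animals, so p-values measure the spread between these libraries, which may be technical.

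Several checks of the libraries bear on every result below. *Arid1a*, the targeted gene, was at 11.7 to 18.8 TPM (an abundance per transcript length, with nearly the same total in each library) in WT and at 18.8 to 27.9 TPM in the libraries labelled cKO. It was thus not lower under the cKO label (log2 fold change 0.66, limma adjusted p = 0.274), and RNA directions are given by label. Of the defining RGC markers, *Pou4f2* was at 0 in 5 of 6 libraries and *Slc17a6* lay between 0.593 and 1.57 TPM. These are 2 of 16 listed RGC markers, of which 12 reached a TPM of 1 in at least 3 libraries. Only 3, *Pou4f2*, *Pou4f3* and *Pvalb*, were at 0 in any library. All 16 listed RGC markers together summed to 175.5 to 223.2 TPM in WT and 282.0 to 307.3 TPM in cKO. The most abundant of them, *Thy1*, was at 51.95 to 88.49 TPM in WT and 94.45 to 128.9 TPM in cKO. The summed level of 16 T cell markers was 1252 to 3668 TPM in WT and 345.1 to 793.6 TPM in cKO, that of 14 myeloid markers 2360 to 3699 and 1025 to 1435 TPM, and that of 12 rod markers 13004 to 18204 and 27131 to 50462 TPM. These lists moved with the labels, and their part in the differences of ribosomal protein genes was not tested. In such bulk samples, fewer cells of a type and less RNA per cell cannot be told apart.

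The cytosolic ribosome pairs a small subunit, which reads the mRNA, with a large subunit, which joins the amino acids. Its proteins are made in matched amounts, and most of their mRNAs begin with a C followed by a run of pyrimidines, the terminal oligopyrimidine or TOP motif, through which mTORC1 and the RNA-binding protein LARP1 adjust their translation. The promoters of these genes usually lack a TATA box. In injured RGCs, the mTOR pathway and the phosphorylation of ribosomal protein S6 are widely followed as readouts of the capacity to regrow an axon.

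Start sites are shown because a TOP motif, where present, begins there and ATAC-seq regions were compared at gene ends. Of the genes printed, *Rpl35* and *Rpl38* had no region within 1000 bp of an end. RefSeq windows on GRCm38.p6 matched 56 of the 76 genes, with 66 annotated starts. Each line gives 25 bases before the start and 15 from the start on, 5′ to 3′, and capitals mark the pyrimidine run that begins with a C at the annotated start.
Rpl15, chr14:18270972-18271011, minus strand: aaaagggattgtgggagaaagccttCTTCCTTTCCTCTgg
Rpl35, chr2:39005117-39005156, minus strand: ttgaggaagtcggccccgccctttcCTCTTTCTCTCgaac
Rps6, chr4:86857353-86857392, minus strand: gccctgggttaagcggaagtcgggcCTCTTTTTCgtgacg
Rpl38, chr11:114668555-114668594, plus strand: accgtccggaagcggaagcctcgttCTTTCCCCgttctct
Rpl14, chr9:120571492-120571531, plus strand: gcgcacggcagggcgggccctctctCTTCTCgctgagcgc
Rplp0, chr5:115559442-115559481, plus strand: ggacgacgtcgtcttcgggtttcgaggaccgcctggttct
The run was 13 bases long in *Rpl15*, the longest among the starts of these genes, and 6 in *Rpl14*. The annotated start of *Rplp0* carried none, which says only that these letters are not at that position.

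A C followed by at least 4 pyrimidines stood at the annotated start itself in 13 of the 66 windows (19.7%), against 2.51% of the 32851 windows of all genes. Annotated starts can lie some bases off the true one, and a run of at least 8 pyrimidines within 25 bases of the start was present in 47.0% of windows against 19.7%, a measure chosen after the sequences were seen. In the whole window, from 250 bases before the start to 50 from it on, letters were searched on both strands. GGGCGG, the core of a GC box, was found in 60.6% of windows against 35.7% of all, CCGGAAG, the core bound by ETS factors, in 36.4% against 8.86%, and AAGATGG, the core bound by YY1, in 16.7% against 6.34%. TATAAA was found in 9.09% against 13.6%. A match is a description of letters and not a bound site.

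Beyond these cores, 2 promoters are printed because their genes return below, *Rps19* with the largest difference in ATAC-seq and *Rpl38* with the largest in RNA. The lines run from 110 bases before the start to 10 from it on, and capitals mark the GC box and ETS cores named above on either strand.
Rps19, chr7:24884482-24884601, plus strand: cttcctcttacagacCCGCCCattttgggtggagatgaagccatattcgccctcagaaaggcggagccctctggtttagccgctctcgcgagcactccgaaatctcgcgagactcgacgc
Rpl38, chr11:114668470-114668589, plus strand: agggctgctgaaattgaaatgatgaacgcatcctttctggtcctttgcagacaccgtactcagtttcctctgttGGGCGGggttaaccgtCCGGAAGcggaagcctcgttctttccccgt

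All 76 genes passed the filter on low values (TPM of at least 1 in at least 3 libraries), which left 17555 genes to test. Of them, 74 were above 0 in every library. *Rps29* was listed at 0 in WT replicate 2 and *Rps21* in cKO replicate 3. Mean TPM over the 6 libraries had a median of 60.2, with 27 genes at 100 or more and 11 under 20, and the highest mean was 88.1 times the lowest. TPM is scaled per transcript length, but comparison of levels between genes is limited by pseudogene copies and by the spread between libraries, both given below. The depth behind the values is unknown.

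The genes of highest mean TPM were *Rpl4*, *Rps27*, *Rps6*, *Rps28* and *Rps14*. *Rpl4*, a large subunit protein that lines the exit tunnel, was at 1039, 577.9 and 929.7 TPM in WT and at 715.4, 633.2 and 530.1 TPM in cKO. *Rps6*, whose protein is the target of S6 kinases downstream of mTORC1, was at 888.6, 196.7 and 480.6 TPM in WT and at 498.2, 519.2 and 288.9 TPM in cKO. The cKO values of *Rps6* lay inside the WT range (log2 fold change -0.06, SE 0.55). Among the lowest were *Rpl12*, *Rps21*, *Rps20* and *Rpl29*. *Rpl12*, a protein at the base of the stalk, had 15.8, 1.25 and 6.18 TPM in WT and 8.84, 13.7 and 4.55 TPM in cKO. Genes whose products enter the ribosome as single copies thus differed widely in listed TPM, under the limits just given.

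Levels followed the library more than the label. The summed TPM of the 76 genes was 14370, 5031 and 7433 in WT replicates 1, 2 and 3 and 8777, 10596 and 4763 in cKO replicates 1, 2 and 3. The highest sum was 3.02 times the lowest, and the 2 labels overlapped. WT replicate 1 was the highest library for 59 of the 76 genes and cKO replicate 2 for 14, while the lowest library was WT replicate 2 for 38 and cKO replicate 3 for 32. Both subunits showed this order: the large subunit summed to 7669, 3152 and 4563 TPM in WT and 5096, 5989 and 2975 TPM in cKO, and the small subunit to 6701, 1879 and 2870 TPM in WT and 3681, 4607 and 1788 TPM in cKO. Markers of Müller glia, the supporting cells of the retina, moved against this order. Their 10 listed genes summed to 9464, 16810 and 18751 TPM in WT and 7708, 7940 and 17719 TPM in cKO, low in the 3 libraries where the ribosomal protein genes were highest and high in the other three. The summed TPM of 8 endothelial markers was likewise lowest in those libraries. It was 209.9 in WT replicate 1 against 463.4 and 545.7 in the other WT libraries, and 174.6 in cKO replicate 1 against 597.5 in cKO replicate 3. Most of that sum came from *Kdr* alone (194.4 to 519.5 TPM in WT, 163.7 to 589.7 TPM in cKO). Only 4 of the 8 passed the filter on low values. The median deviation of those 4 from their gene means, on log2(TPM + 1), did not follow this order. It was highest in WT replicate 3 (0.91) and lowest in cKO replicate 3 (-0.47). The part of these cells in the ribosomal protein levels was not tested.

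**Figure D1:**
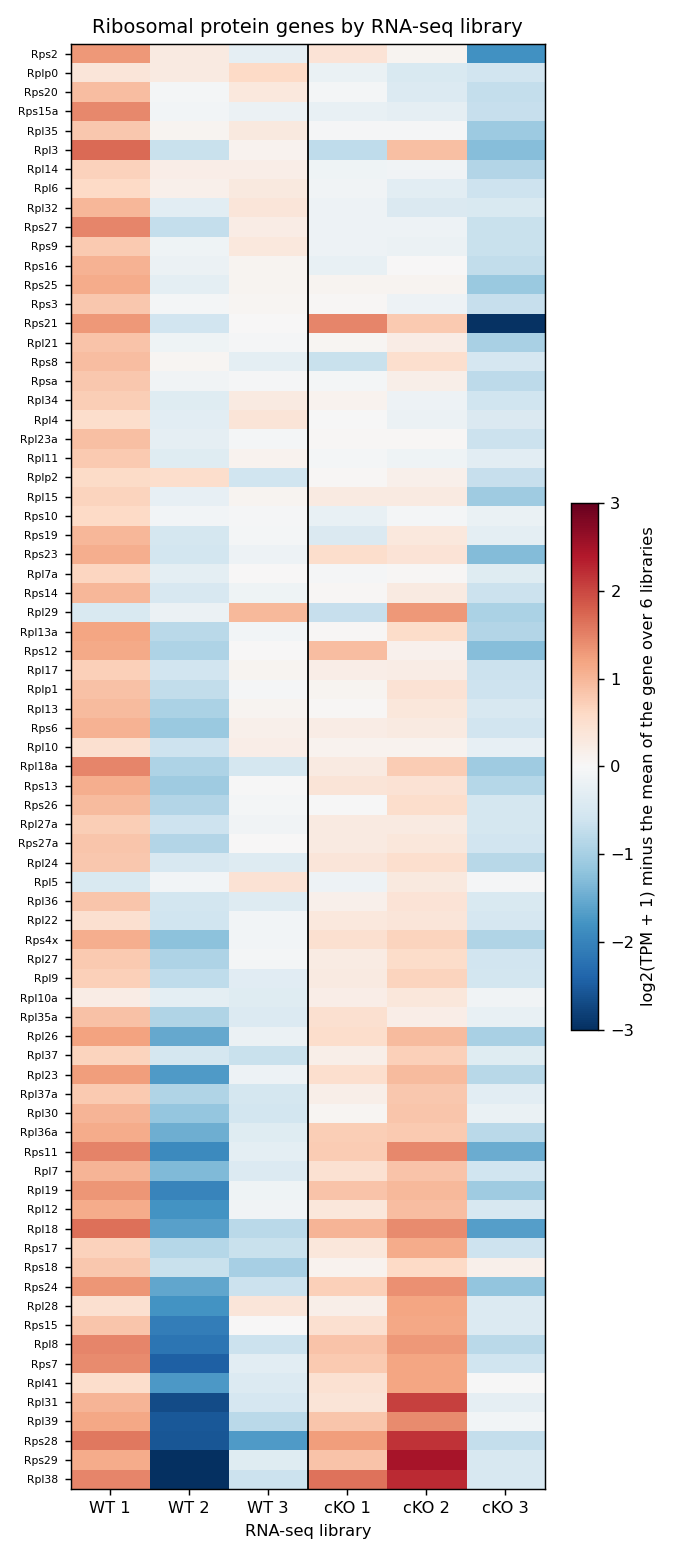
The ribosomal protein genes (75 of the 76 drawn, rows ordered by log2 fold change) in each of the 6 RNA-seq libraries (columns), coloured by log2(TPM + 1) minus the mean of that gene. Of all 76 genes, WT 1 is the highest library for 59, and WT 2 and cKO 3 are the lowest for 38 and 32.

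The spread within a label was larger than for other genes. Between WT replicates 1 and 2 the median log2 difference was 1.58 over these genes and -0.25 over all genes tested, and between cKO replicates 2 and 3 it was 1.10 against 0.00. In each pair these are the libraries where most of the 76 genes were highest and lowest within the label. Signed differences can cancel over all genes, so these medians do not measure the spread of other genes, which the residual SD does. The median residual SD on the log2 scale was 0.73 for these genes and 0.41 for all genes tested, or 0.38 for the 10972 genes with a mean TPM at least that of the lowest ribosomal protein gene. When each library was centred on the median of these genes, their residual SD was 0.36 and that of all genes 0.86, a contrast that the centring partly sets by construction. Without centring, 65 of the 76 genes had WT replicate 1 above 3 above 2, and 71 had cKO replicate 3 as the lowest of cKO. Most of the 76 genes thus moved together from library to library, apart from a smaller set described below.

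Other gene groups were summed in the same libraries. Summed TPM of 27 short mRNAs that code for no ribosomal protein, such as subunits of ATP synthase and cytochrome c oxidase, was 5766, 1289 and 2653 in WT and 4060, 6556 and 2098 in cKO. This list was chosen after the values of the ribosomal protein genes were seen, and like them it was low in WT replicate 2 and cKO replicate 3 and high in WT replicate 1 and cKO replicate 2. The 78 mitochondrial ribosomal protein genes, which serve a separate ribosome, held 2781 to 3366 TPM in WT and 2693 to 3978 TPM in cKO. The 295 listed pseudogene copies of cytosolic ribosomal protein genes, of which 170 were at 0 in every library, held 814.2, 887.0 and 735.6 TPM in WT and 589.0, 479.9 and 499.1 TPM in cKO, and in this sum the labels did not overlap. The falls were largest in the copies of *Rpl15* (mean 177.0 TPM in WT, 67.2 in cKO), *Rps6* (113.4, 7.98), *Rpl10* (179.8, 84.7) and *Rps23* (52.1, 10.0). Copies of other genes, such as *Rps2* (85.4, 109.1) and *Rpl3* (27.4, 41.4), were higher in cKO on average. The part of transcript length or RNA quality in these differences was not tested.

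**Figure D2:**
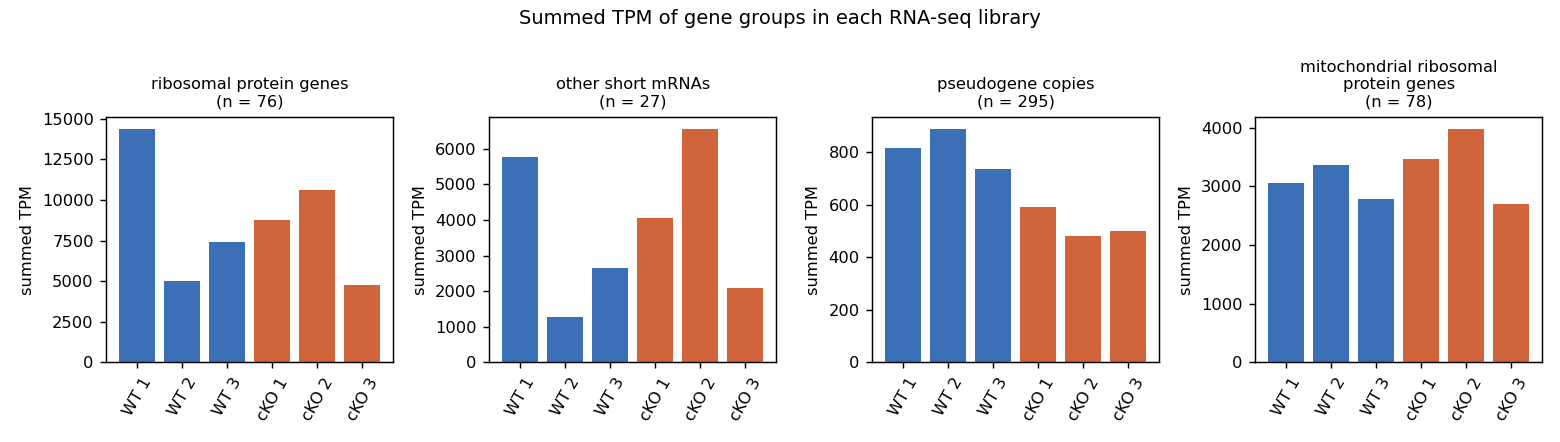
Summed TPM in each RNA-seq library (WT blue, cKO orange, 1 bar per library, axes from 0 with a separate scale per panel) for 76 ribosomal protein genes, 27 other short mRNAs, 295 pseudogene copies and 78 mitochondrial ribosomal protein genes. The first 2 panels share a low WT 2 and cKO 3, and in the pseudogene panel every cKO bar is below every WT bar.

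Between the labels, none of the 76 genes passed an adjusted p of 0.05 in limma on log2(TPM + 1), where 0.00570% of all genes tested did. None did so under an alternative either, where the share of all genes was 0.00328% with no filter, 0.00786% with a mean TPM of at least 5, 0.0114% with the replicate block, 0.0228% with no trend and 0.342% after centring on these genes. The median log2 fold change, cKO minus WT, was -0.03 over these genes and 0.16 over all genes tested, with 35 genes above 0 and 41 below. Scaling libraries by the median of ratios moved these medians to -0.19 and 0.01, with 5 genes lower at an unadjusted p under 0.05 (9.55% of all genes tested in that fit). At an unadjusted p under 0.05, 0 genes were higher in cKO (11.9% of all genes tested) and 3 were lower (6.45% of all genes tested), namely *Rplp0*, *Rpl6* and *Rpl14*. With the replicate number as a block, 7 were lower (8.52% of all genes tested in that fit): these 3 with *Rpl32*, *Rpl35*, *Rps2* and *Rps20*. By subunit, the median was 0.05 for the large subunit, with 25 above 0 and 21 below, and -0.25 for the small subunit, with 10 above and 20 below, a difference that was not tested.

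**Figure D3:**
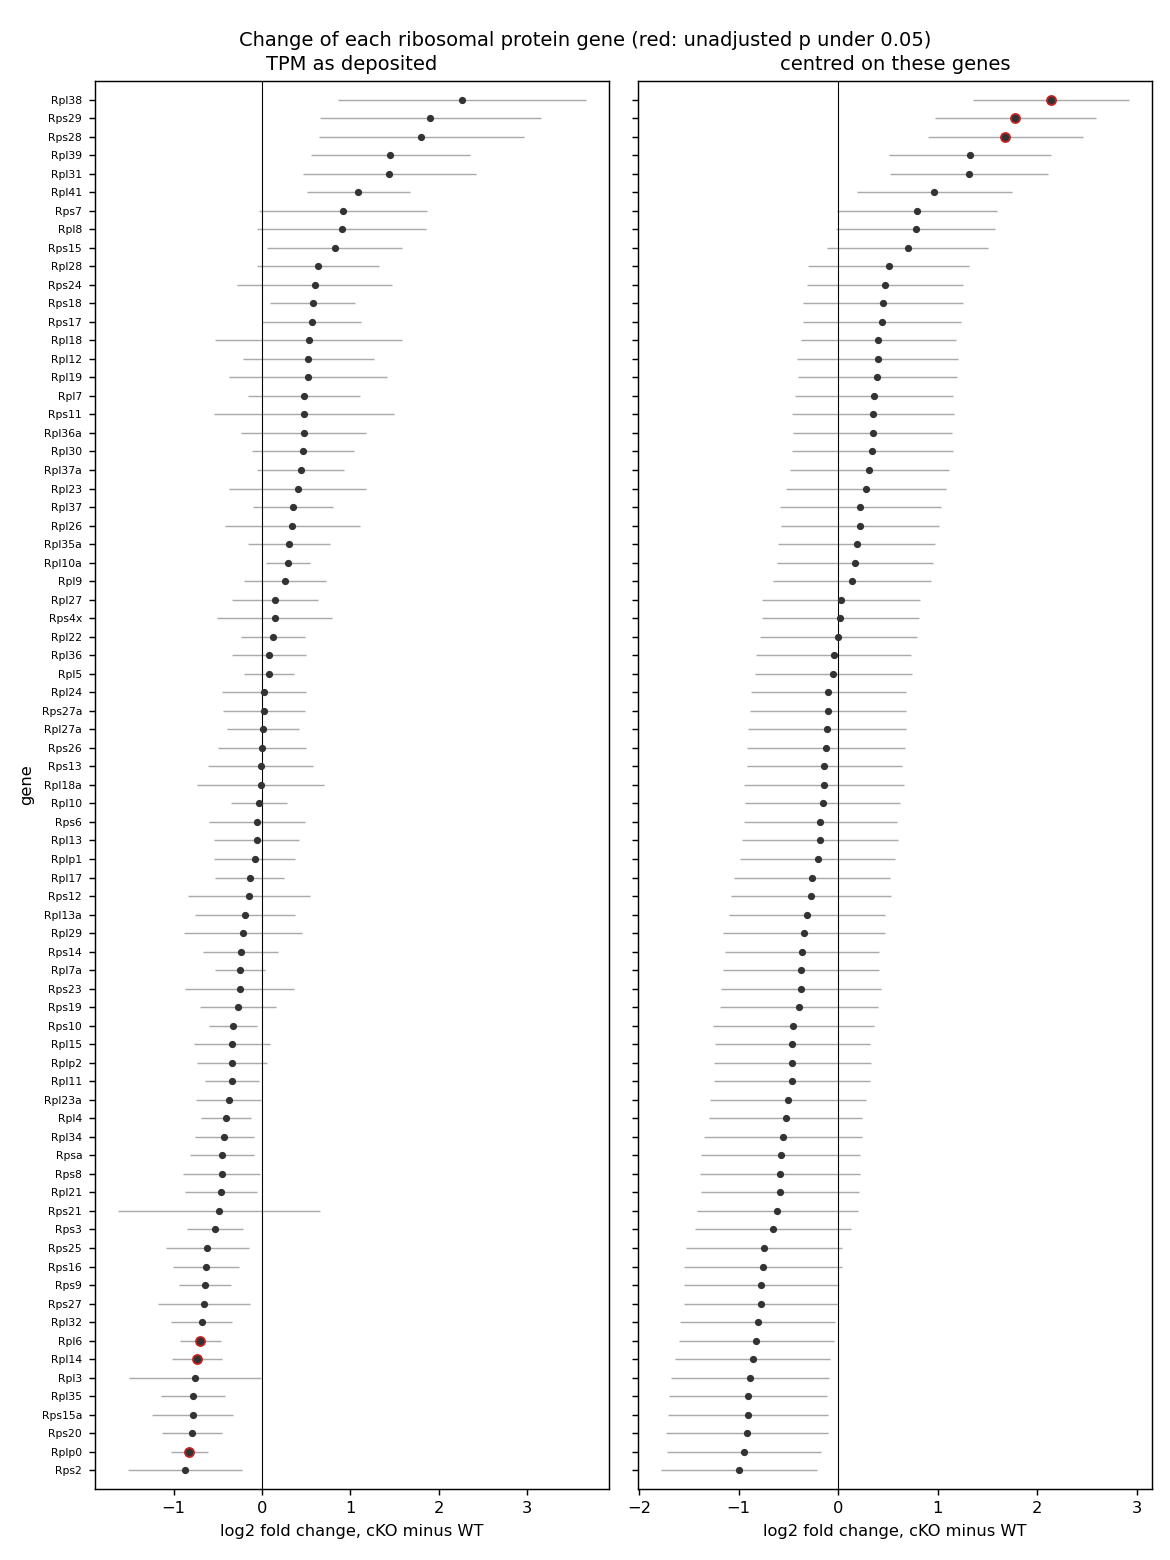
Log2 fold change (cKO minus WT) with its limma standard error for 75 of the 76 genes, on TPM as deposited (left) and after centring each library on these genes (right); red marks an unadjusted p under 0.05. The red points are *Rplp0*, *Rpl6* and *Rpl14* below 0 on the left and *Rpl38*, *Rps28* and *Rps29* above 0 on the right. Standard errors on the right come mainly from the spread of all genes.

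*Rplp0* codes for the P0 protein, the base of the stalk that recruits elongation factors, and is often used as a reference gene in PCR. It was at 329.2, 311.8 and 392.3 TPM in WT and at 222.3, 187.3 and 173.4 TPM in cKO, so that every cKO library lay below every WT library. The log2 fold change was -0.82 (SE 0.21, limma adjusted p = 0.138), the lowest adjusted p of the 76 genes. An exact two-sided permutation test over the 20 arrangements of the labels gave p = 0.1, the smallest it can give. Unlike most of these genes, *Rplp0* was highest in WT replicate 3.

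*Rpl6* and *Rpl14* code for large subunit proteins. *Rpl6* was at 316.9, 231.9 and 252.8 TPM in WT and at 192.4, 166.9 and 134.3 TPM in cKO (log2 fold change -0.70, SE 0.23, limma adjusted p = 0.188). *Rpl14* was at 251.5, 179.2 and 177.5 TPM in WT and at 141.5, 143.6 and 84.4 TPM in cKO (log2 fold change -0.74, SE 0.28, limma adjusted p = 0.237). Neither gene overlapped between the labels.

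In all, 6 genes had every cKO library below every WT library (7.18% of all genes tested did) and 0 had every cKO library above (18.7% of all genes tested). The other members of the 6 were *Rpl35*, *Rps15a* and *Rps9*, the last of them named after its values were seen. *Rps9*, a small subunit protein near the mRNA entry site, was at 501.3, 264.2 and 359.2 TPM in WT and at 261.5, 257.0 and 183.2 TPM in cKO, so the closest pair of libraries differed by only a few TPM. *Rps15a* was at 51.4, 17.2 and 16.2 TPM in WT and at 15.6, 15.2 and 11.0 TPM in cKO, where WT replicate 1 alone stood far above the rest. *Rpl35* was at 79.0, 47.7 and 54.9 TPM in WT and at 43.5, 43.7 and 20.6 TPM in cKO. The *Rps2* gene, of a protein at the mRNA entry channel, had the lowest log2 fold change (-0.87, SE 0.65), with 418.5, 202.9 and 140.6 TPM in WT and 223.9, 180.0 and 47.4 TPM in cKO, and its labels overlapped.

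The 3 highest log2 fold changes belonged to genes of very small proteins. *Rpl38*, known for the skeletal patterning defects of its mutant mice, was at 333.7, 5.53 and 77.3 TPM in WT and at 375.1, 573.6 and 86.3 TPM in cKO (log2 fold change 2.26, SE 1.40). *Rps28* was at 765.7, 42.4 and 77.6 TPM in WT and at 613.2, 1157 and 155.1 TPM in cKO (log2 fold change 1.80, SE 1.16). *Rps29* was at 25.4, 0 and 8.51 TPM in WT and at 21.2, 66.8 and 7.71 TPM in cKO (log2 fold change 1.90, SE 1.25). In all 3 genes WT replicate 1 stood among the 3 highest libraries and WT replicate 2 was the lowest, and the labels overlapped.

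*Rpl39*, *Rpl31* and *Rpl41* followed in size. *Rpl41*, which codes for one of the shortest proteins known, was at 223.4, 46.2 and 116.5 TPM in WT and at 213.8, 355.0 and 155.2 TPM in cKO (log2 fold change 1.09, SE 0.58). *Rpl39* was at 0.938 TPM in WT replicate 2, against 24.5 and 5.50 TPM in the other WT libraries and 19.3, 29.0 and 9.71 TPM in cKO. After centring on the 76 genes, 3 were higher in cKO at an unadjusted p under 0.05 (0.752% of all genes tested in that fit), *Rpl38*, *Rps28* and *Rps29*, and 0 were lower (3.23%). The SE in that fit came mainly from the spread of all genes, which centring had raised. It was 0.782 for *Rpl38* and 0.775 for *Rplp0*, whose SE was 0.206 without centring. These calls therefore pick out large fold changes and do not reflect the spread of each gene between libraries. Without WT replicate 1, 8 genes were higher at an unadjusted p under 0.05 (9.69% of all genes tested) and 2 were lower (6.74%). Without WT replicate 2, 8 were lower (7.90%), and without cKO replicate 3, 1 was lower (6.95%). A count of 8 is 10.5% of the 76 genes, close to the share of all genes in both fits. The median log2 fold change of the 76 genes was 0.39 without WT replicate 1 and -0.44 without WT replicate 2.

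Non-overlap was counted in the same fits. After centring, a scale that the 76 genes themselves set, 15 had every cKO library below every WT library (3.56% of all genes) and 4 every one above (4.38%). Centring adds the library shifts of the 76 genes to all other genes. Without it the shares of all genes were 7.18% below and 18.7% above, so the centred shares are no even background for these counts. Above, the count was 12 without WT replicate 1 (22.5% of all genes) and 1 without cKO replicate 3 (29.4%). Below, it was 16 without WT replicate 2 (11.7%) and 11 without cKO replicate 2 (8.55%).

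Other genes with known roles showed no separation between labels. *Rpl10*, which joins the large subunit late and lies on chromosome X, was at 214.9, 98.6 and 174.8 TPM in WT and at 163.5, 163.3 and 129.3 TPM in cKO. *Rpsa*, the laminin receptor precursor, was at 60.8, 32.0 and 33.7 TPM in WT and at 32.7, 38.9 and 19.4 TPM in cKO. *Rps27a*, which is made as a fusion with ubiquitin, had a log2 fold change of 0.02 (SE 0.47), *Rpl22* one of 0.12 (SE 0.36), *Rps4x* one of 0.15 (SE 0.65) and *Rpl13a* one of -0.19 (SE 0.57).

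Near-identical pseudogenes make some of these levels uncertain, since reads can be divided between a gene and its copies. In 61 genes a copy was listed, and in 15 the copies summed to over 10% of the gene. *Rps6* copies were at 4.92, 238.4 and 96.8 TPM in WT and at 8.68, 14.0 and 1.22 TPM in cKO, so they were highest in the WT library where *Rps6* itself was lowest. *Rps23* copies, at 67.2, 32.1 and 57.1 TPM in WT and 0 to 15.1 TPM in cKO, exceeded the gene on average.

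The genes that the name pattern left out differed in sign. *Rps3a1* was at 367.2, 178.5 and 288.0 TPM in WT and at 182.0, 142.1 and 106.4 TPM in cKO (log2 fold change -0.92, SE 0.33, limma adjusted p = 0.215). *Fau*, which encodes a ribosomal protein fused to a ubiquitin-like protein, had a log2 fold change of 0.41 (SE 0.70), and *Rack1*, a scaffold on the small subunit, one of -0.59 (SE 0.28). Of 5 paralogs tested, such as *Rpl22l1*, none passed an unadjusted p of 0.05 in limma in either direction.

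Around the ribosome, none of the listed genes passed an adjusted p of 0.05 in limma, and the counts at an unadjusted p stand beside the 11.9% of all genes tested that were higher and the 6.45% that were lower. Among 36 translation factors tested, 0 were higher and 0 lower at an unadjusted p under 0.05 (median log2 fold change -0.09), and among 78 mitochondrial ribosomal protein genes likewise 0 and 0 (median 0.11). Among 50 ribosome biogenesis genes 1 was higher, *Dimt1*, an rRNA methyltransferase, and 1 was lower, *Myc*, a transcription factor that drives ribosome production. *Myc* was at 26.6, 17.8 and 37.0 TPM in WT and at 8.62, 4.79 and 8.50 TPM in cKO (log2 fold change -1.74, SE 0.36, limma adjusted p = 0.124).

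Among 25 genes of mTORC1 and TOP control, 4 were higher at an unadjusted p under 0.05, among them *Tsc1*, *Tbc1d7* and *Rps6kb2*, and 2 were lower (*Rps6ka1* and *Eif4ebp1*). *Tsc1* and *Tbc1d7* belong to the complex that restrains mTORC1, and *Rps6kb2* codes for an S6 kinase. *Eif4ebp1*, a repressor of cap-dependent translation that mTORC1 inactivates, was at 8.69, 9.08 and 10.7 TPM in WT and at 3.10, 2.91 and 4.45 TPM in cKO (log2 fold change -1.24, SE 0.28, limma adjusted p = 0.124). *Mtor* itself was at 6.22, 15.4 and 16.7 TPM in WT and at 13.0, 11.9 and 25.5 TPM in cKO, with overlapping labels. *Larp1*, which binds the TOP motif, had a log2 fold change of 0.09 (SE 0.29).

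ATAC-seq, which marks open chromatin, was compared at the ends of the same genes. At least 1 region lay within 1000 bp of an end in 60 of the 76 genes (78.9%, Wilson 95% interval 68.5 to 86.6%), against 20.6% of all genes in the RefSeq table and 55.1% of the other protein-coding genes tested by RNA-seq. With the outer gene end on its strand taken as the start, regions lay within 1000 bp of it in 40 genes. They lay at the far end only in 3 (*Rpl4*, *Rpl41* and *Rps28*), and in 17 the strand was not used. This start can differ from that of the promoter windows above. In *Rpl18* and *Rpl19* the window starts lay further inside the gene and outside the region. The window start of *Rps2*, counted as without a region, also lay inside the gene, away from both ends. The 16 genes without a region, 11 of the large and 5 of the small subunit, included *Rpl11*, *Rpl12*, *Rpl13*, *Rpl17*, *Rpl22*, *Rpl23a*, *Rpl26*, *Rpl35*, *Rpl37a* and *Rpl38*. Of the 62 regions, 30 also lay at the end of another gene, and 1 region can serve more than 1 of the 76 genes.

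The authors' table holds 1 value per group, the log2 of mean normalized reads, and no value per library, so differences carry no error and were not tested. The median value over the 62 regions was 5.07 in WT (33.5 reads) and 2.44 in cKO (5.43 reads). The median difference, cKO minus WT, was -2.66 (quartiles -3.40 and -1.96), beside -2.59 at the ends of other protein-coding genes (6727 regions) and -1.57 over all regions. The table lists only regions with a peak in at least 2 of the 4 libraries (16600 of 16600), and a region listed through the WT peaks alone is by that listing without a peak in cKO, so counts of lower regions are a description. Where both WT and neither cKO library had a peak, the median difference was -2.81 at these genes, -2.71 at other protein-coding gene ends and -2.50 over all regions. Values were lower in cKO in 61 of 62 regions, where 77.3% of all regions were. A difference of -1 or below was seen in 60 regions (96.8%), against 59.8% of all regions and 93.4% of those at other protein-coding gene ends. A difference of -2 or below was seen in 45 regions (72.6%), against 40.8% and 72.1%. Ribosomal protein gene ends were thus lower in cKO to about the extent of other gene ends.

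**Figure D4:**
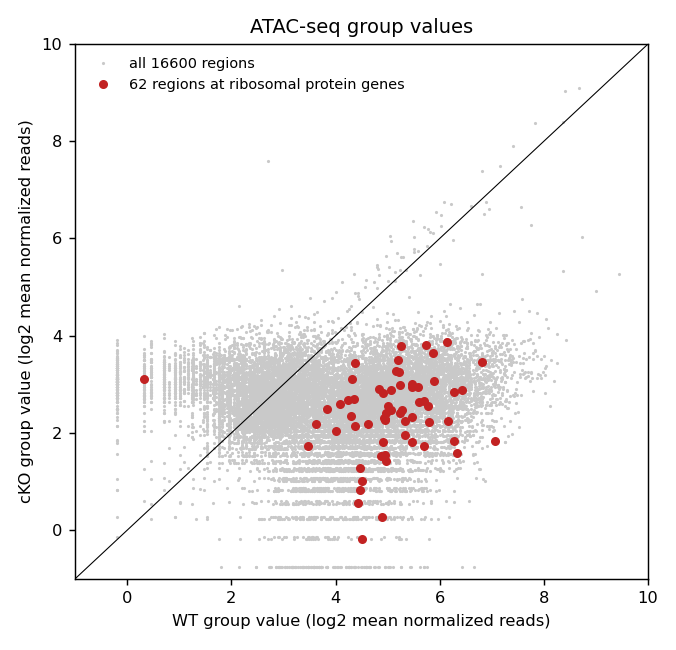
ATAC-seq group values (log2 mean normalized reads) in WT (x) and cKO (y) for all 16600 regions in grey and the 62 at ribosomal protein genes in red, with the line of equal values. Of the red points 61 lie below the line and 1, at the far end of *Rps28*, lies above.

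*Rps19*, a small subunit protein mutated in Diamond-Blackfan anaemia, had the largest difference. Its region at chr7:24884008-24884811, which covers the start printed above, went from 133.4 reads in WT to 3.58 in cKO, a log2 difference of -5.22. *Rpl10* (-4.75), *Rplp2* (-4.69), *Rps16* (-4.62) and *Rpl13a* (-4.44) followed, each with peaks in both WT libraries and in neither cKO library. The RNA of *Rps19* was at 82.3, 27.8 and 38.7 TPM in WT and at 29.8, 50.9 and 32.8 TPM in cKO, and the labels overlapped.

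The smallest differences were at *Rpl29* (-0.95), *Rpl24* (-1.21), *Rpl19* (-1.35) and *Rpl36* (-1.47 and -1.45 at its ends). The *Rpl19* region also lies at an end of *Cacnb1* and does not cover the starts of the *Rpl19* promoter windows. *Rps28* alone had a higher value in cKO, 2.77 on the log2 scale, from 1.257 to 8.57 reads, at chr17:33822266-33822734. That region lies at the far end of the gene, 2062 bp from its start to the region's centre, and also at an end of *Kank3*, and both cKO libraries but no WT library had a peak in it. In contrast, the region of *Rps6* at chr4:86856924-86858183 had peaks in all 4 libraries and a difference of -1.94.

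Peaks called by the authors in each library separately could be counted without the group values. A peak lay within 1000 bp of an end of 67 of the 76 genes in WT replicate 1 (88.2%; 30.7% of all genes) and of 62 in WT replicate 2 (81.6%; 25.1% of all genes). In cKO it did so for 11 genes in replicate 1 (14.5%; 10.6% of all genes) and for 14 in replicate 2 (18.4%; 11.5% of all genes). The libraries held 76522 and 42265 peaks in WT and 55902 and 68317 in cKO, so cKO libraries did not hold fewer peaks as a whole. With 2 libraries against 2, an exact permutation of the labels cannot give a p under 0.05, and these shares were not tested. Among the 62 regions, 56 had a peak in both WT libraries and in neither cKO library (90.3%), against 55.1% of all regions and 85.4% of those at other protein-coding gene ends. Regions of this kind are listed through their WT peaks alone, so these shares are a description.

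**Figure D5:**
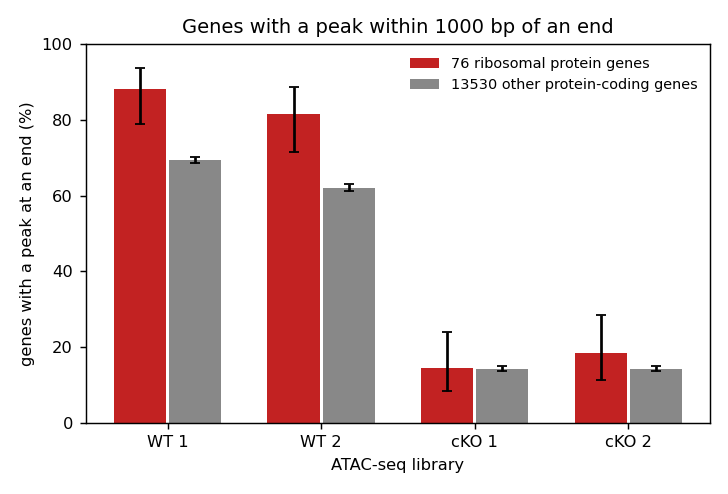
Share of genes (%) with a peak within 1000 bp of an end in each ATAC-seq library, for the 76 ribosomal protein genes (red) and 13530 other protein-coding genes tested by RNA-seq (grey); lines are Wilson 95% intervals, which cover counting error only. Both kinds of gene stand high in WT and low in cKO, with the red bars at 88.2% and 81.6% in WT and 14.5% and 18.4% in cKO.

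The lower ATAC-seq values had no matching shift in RNA. Genes with a region had a median RNA log2 fold change of -0.01 and the 16 without one -0.24. Across the 60 genes with a region, the RNA log2 fold change and the ATAC-seq difference of the strongest region had a Pearson correlation of 0.31 and a Spearman correlation of 0.21, a description over genes that share the same libraries. *Rplp0* was low in both, with a region of -3.40 at its start, whereas *Rpl6*, next in RNA, had no region, and *Rps29*, among the highest log2 fold changes in RNA, had a region of -3.97.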

How the data were processed

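Libraries were grouped by their GEO titles. Per the methods and the submitters' processing notes, the authors trimmed reads with Trimmomatic and quantified RNA with Salmon 1.0.0 (GC bias correction) and tximport on GENCODE, and deposited TPM per gene and library. TPM keeps no depth, so no counting interval can be given. For ATAC-seq the authors aligned to GRCm38 with Bowtie2 2.3.5.1, listed peaks per library (the notes name MACS2 2.2.5), and deposited group values from DiffBind as log2 mean normalized reads. Their comparison columns (fold changes, p-values and FDR from DESeq2 1.26.0 and DiffBind) were not used.

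Here, genes were kept that reached a TPM of 1 in 3 or more of the 6 libraries, and log2(TPM + 1) was compared with limma 3.58.1 in R 4.3.3 (empirical Bayes with a trend, two-sided, Benjamini-Hochberg over all genes tested, threshold 0.05). With the pseudocount, fold changes of genes at low TPM come out too small. The study's methods used counts, which were not used here. Single genes were also compared with exact permutation tests. Same-numbered libraries correlated in their deviations from the group means at 0.334, 0.101 and 0.425 over all genes (0.248, -0.641 and 0.0499 over the ribosomal protein genes). Libraries of different numbers were not compared, so these values do not show that the numbers are pairs, and no label states it. The block was run only as an alternative. Gene positions and promoter windows came from RefSeq on GRCm38.p6, without strand for 20 of the 76 genes. Region and peak starts were shifted by 1 to count from 1, and a peak was counted at a region with an overlap of at least 1 bp. In simulated data, limma called 2.99%, 38.8% and 51.5% of genes changed by 1, 2 and 3 on the log2 scale among 17555 genes. The simulated spread was independent between genes and taken from all genes tested (median residual SD 0.41). These shares therefore do not carry over to the ribosomal protein genes, whose median residual SD was 0.73.

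The ribosomal protein genes and the lists beside them were chosen with earlier results of these data known. Named genes are the 5 of highest and of lowest mean TPM, the 10 largest changes in each direction, genes whose labels do not overlap, 10 with known roles, the first 10 without a region, the 5 largest and smallest ATAC-seq differences, and the largest changes of the other lists, of which the text gives a part. Some genes are not reported here. Python 3.11.15 with numpy 2.4.6, pandas 2.3.3, scipy 1.17.1 and matplotlib 3.10.9 was used. Alternatives were another pseudocount, other filters, other scalings, the block, no trend, each library left out, other distances and a reciprocal overlap.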

Additional observations from a re-analysis of the deposited data

How the results depend on the processing

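No gene of the 76 passed an adjusted p of 0.05 under any alternative run. At an unadjusted p under 0.05, centring on the 76 genes gave 3 higher (0.752% of all genes tested) and 0 lower (3.23%), with SEs that came mainly from the spread of all genes. Scaling by the median of ratios gave 5 lower (9.55%) and the replicate block 7 lower (8.52%). Leaving out each library gave 0 to 8 higher (all genes 5.89 to 13.5%) and 1 to 8 lower (all genes 3.97 to 7.90%). The extremes were 8 higher without WT replicate 1 (9.69%), 8 lower without WT replicate 2 (7.90%) and 1 lower without cKO replicate 3 (6.95%). Genes with no overlap numbered 4 above (4.38% of all genes tested) and 15 below (3.56%) after centring, which itself lowers the shares of all genes. They numbered 0 to 12 above and 6 to 16 below with a library left out. Among these were 12 above without WT replicate 1 (22.5%) and 1 above without cKO replicate 3 (29.4%). Below, there were 16 without WT replicate 2 (11.7%) and 11 without cKO replicate 2 (8.55%). The cause of these shifts was not tested; fewer libraries make non-overlap easier by construction. The block changed no adjusted call. Of 598 values of 46 named genes under alternatives, 517 kept their sign and side of an unadjusted p of 0.05, 20 passed it, 8 no longer did, and 53 changed sign with no p under 0.05.

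Genes with a peak at an end numbered 6 within 500 bp (7.89%; all genes 6.56%) and 19 within 3000 bp (25%; all genes 23.5%) in cKO replicate 1, and 24 within 3000 bp (31.6%; all genes 25.9%) in cKO replicate 2. With a reciprocal overlap of 50%, regions with a peak numbered 2 and 1 in the cKO libraries. At a log2 difference of at least 2, 45 regions were lower. The median ATAC-seq difference ranged from -2.90 to -2.61 over other distances, the start alone and 1 region per gene, of which the distances and the start were chosen after seeing the data. For the ATAC-seq values no replicate was tabulated. No paired analysis was possible because each group has 1 value. Depth is unknown for every library, and 3 or 2 libraries per group limit each comparison.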
